A study of Mus musculus with 4 samples.

Results

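Distal regions called in all 4 libraries are the sites away from annotated gene starts at which transcription initiation was detected in both tissues of the study and in both replicates of each. The libraries were made by PRO-seq (precision nuclear run-on sequencing, which maps engaged RNA polymerases through the nascent RNA they extend) from mouse embryos at stage E14.5. The groups compared were liver and yolk sac, with 2 libraries each, and each library held tissue pooled from 6 embryos. All embryos came from C57BL/6J mothers and fathers of a mixed C57BL/6J and CAST/EiJ background that carried CAST/EiJ alleles around Dlk1/Gtl2 (chromosome 12), per the series' design text, and no allele was resolved here. The sample labels spell the first strain C57BL/6h. Each library has 1 list of dREG peaks, intervals that a classifier picks out of run-on data as places where transcription starts, with a score for each peak. The members were chosen by these calls and by annotation. Peaks that overlapped by 1 bp or more were merged into 61095 regions, of which 15689 were overlapped by a peak in each of the 4 lists. Of those, 3814 had no GENCODE vM21 transcript start within 500 bp. These members were 6.24% of all regions and 24.3% of the regions called in all 4 lists. The other 11875 lay at a start site.

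Run-on signal at sites away from gene starts comes mostly from enhancers, which recruit RNA polymerase II and are transcribed into short, unstable RNAs in both directions. Enhancers are better known for differing between tissues than promoters are, so sites used by 2 tissues form a separate group among them. The fetal liver at this stage is the main site of red cell formation and also holds hepatocyte precursors, whereas the yolk sac is built of visceral endoderm, mesoderm and blood vessels. Run-on assays also pick up RNA polymerase III, which transcribes tRNA genes, and the starts of long noncoding RNAs that an annotation does not hold.

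Some members lay at starts that RefSeq annotates and GENCODE vM21 does not. RefSeq start windows, 250 bases before to 50 bases after a start on GRCm38.p6, lay wholly inside 149 members (178 windows, 163 of lncRNA genes and 15 of protein-coding genes). Sequence is shown for 7 of them, because they show the bases at the highest-ranked, the most clustered and the leading protein-coding member of this kind. The 5 lncRNA windows in the members with the highest lowest score percentile come first, followed by Gm34403 in the group near Zfp217 and by the histone gene H2bc6. Their positions were chr3:95985260-95985559 (+) for Gm9054, chr13:64343738-64344037 (-) for Gm31128, chr6:101271686-101271985 (+) for Gm33934, chr5:149067563-149067862 (+) for Gm30078, chr9:120601620-120601919 (+) for Gm34323, chr2:170184718-170185017 (-) for Gm34403 and chr13:23585921-23586220 (-) for H2bc6. Each is written 5′ to 3′ on the strand of its gene. Capitals mark matches, on either strand, to the core letters of 9 motifs that are spelled out after the sequences. An E-box and a CTCF match adjoin near the 5′ end of Gm34323.
Gm9054: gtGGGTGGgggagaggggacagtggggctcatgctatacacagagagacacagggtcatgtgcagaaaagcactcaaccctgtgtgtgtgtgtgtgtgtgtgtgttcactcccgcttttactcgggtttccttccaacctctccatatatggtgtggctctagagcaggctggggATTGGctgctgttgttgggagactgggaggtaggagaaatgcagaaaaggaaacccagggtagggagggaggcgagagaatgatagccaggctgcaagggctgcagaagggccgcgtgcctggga
Gm31128: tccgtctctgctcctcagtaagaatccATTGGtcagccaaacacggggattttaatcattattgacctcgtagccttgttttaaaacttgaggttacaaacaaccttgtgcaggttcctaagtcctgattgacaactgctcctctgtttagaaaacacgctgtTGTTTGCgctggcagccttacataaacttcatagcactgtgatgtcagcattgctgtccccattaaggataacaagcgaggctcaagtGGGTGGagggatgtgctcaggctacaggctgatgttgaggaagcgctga
Gm33934: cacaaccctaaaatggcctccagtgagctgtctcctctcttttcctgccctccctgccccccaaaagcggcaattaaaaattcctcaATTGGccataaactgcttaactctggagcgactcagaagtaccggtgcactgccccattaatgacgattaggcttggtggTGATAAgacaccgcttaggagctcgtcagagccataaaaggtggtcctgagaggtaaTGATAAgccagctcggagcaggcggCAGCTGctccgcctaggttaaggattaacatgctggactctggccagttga
Gm30078: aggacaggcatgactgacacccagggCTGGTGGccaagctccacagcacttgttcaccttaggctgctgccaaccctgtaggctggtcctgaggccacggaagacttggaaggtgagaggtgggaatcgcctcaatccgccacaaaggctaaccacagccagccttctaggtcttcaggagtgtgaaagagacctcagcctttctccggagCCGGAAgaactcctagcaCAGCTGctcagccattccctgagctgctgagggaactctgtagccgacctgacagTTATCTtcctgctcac
Gm34323: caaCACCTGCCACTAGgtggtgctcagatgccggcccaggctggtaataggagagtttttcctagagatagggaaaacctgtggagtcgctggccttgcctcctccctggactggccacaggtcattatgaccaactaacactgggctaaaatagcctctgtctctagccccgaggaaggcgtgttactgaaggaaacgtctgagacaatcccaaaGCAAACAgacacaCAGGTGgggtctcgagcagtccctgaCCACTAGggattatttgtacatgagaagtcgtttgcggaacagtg
Gm34403: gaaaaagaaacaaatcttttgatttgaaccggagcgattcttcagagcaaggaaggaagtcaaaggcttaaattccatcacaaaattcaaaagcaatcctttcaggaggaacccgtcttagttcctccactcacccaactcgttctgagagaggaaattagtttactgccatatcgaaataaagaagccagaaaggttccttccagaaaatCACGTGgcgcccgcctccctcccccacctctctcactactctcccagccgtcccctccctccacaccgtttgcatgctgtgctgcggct
H2bc6: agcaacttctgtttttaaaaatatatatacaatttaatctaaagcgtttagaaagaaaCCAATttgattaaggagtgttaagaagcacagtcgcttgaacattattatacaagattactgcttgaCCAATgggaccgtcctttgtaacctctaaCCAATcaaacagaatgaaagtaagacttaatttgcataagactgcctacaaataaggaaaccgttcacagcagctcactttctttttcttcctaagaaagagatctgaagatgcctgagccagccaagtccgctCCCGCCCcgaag

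The windows differed in what they held. Gm33934, in an intron of Pdzrn3, had 2 GATA matches and its region stood at percentiles of 99.6 and 88.8 in liver and 92.0 and 88.9 in yolk sac. A percentile here is the percent of a list's peaks with a score at or below that of the region's highest peak. Gm9054 had 1 NF-Y and 1 KLF match, with its region at 93.5 and 98.2 in liver and 98.1 and 98.4 in yolk sac. H2bc6 (named Hist1h2be in GENCODE vM21), which encodes a histone H2B, had 3 NF-Y matches and 1 SP match. Its region was at 70.2, 70.9, 85.1 and 78.8 in the order liver 1, liver 2, yolk sac 1 and yolk sac 2, an order kept below wherever 4 values follow each other.

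Over all 178 windows in members, 27 (15.2%) were rich in CpG, with over 50% GC and an observed to expected CpG ratio over 0.6. The share was 73.8% of 12082 windows in shared regions at a start site and 33.3% of all 32817 windows. GATA letters, with AGATAA or with TGATAA as the form, were in 22.5% of the windows in members, in 55.1% of 69 windows in distal regions called in both liver lists only and in 21.3% of 211 windows in distal regions called in both yolk sac lists only. All windows had them in 18.6%. At shared start sites they were in 8.71% of all windows and in 9.34% of the lncRNA windows. Of 16 motifs searched, only the 9 with a match in a printed window are described. For the rest of these the shares are given for members, shared start sites and all windows in that order. The ETS letters TTCCGG were in 9.55%, 30.1% and 14.9%, and the SP letters CCCGCCC in 15.2%, 50.6% and 25.6%, the widest differences from the shared start sites. The NF-Y letters CCAAT were in 32.6%, 37.2% and 37.4%. The KLF letters CCACCC were in 40.4%, 37.4% and 31.5%. An E-box, with CAGGTG or with CAGCTG as the form, was in 37.1%, 28.5% and 33.0%. Forkhead letters, with TGTTTAC or with TGTTTGC as the form, were in 9.55%, 5.59% and 8.47%. CTCF letters, with CCACTAG or with CCACCAG as the form, were in 9.55%, 8.79% and 8.93%. The MYC/USF letters CACGTG were in 5.62%, 10.6% and 7.15%. Of the 12082 windows at shared start sites 10658 were of protein-coding genes, whereas 163 of the 178 in members were of lncRNA genes. Among the 1424 lncRNA windows at shared start sites, 66.3% were rich in CpG. ETS letters were in 24.1% of them, SP letters in 41.8% and an E-box in 33.0%. The motif shares are matches to letters and are given as a description.

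The lists were of unequal length, with 24863 and 24333 peaks for the liver libraries against 50525 and 43055 for the yolk sac libraries, and the number of reads behind them is unknown. The tissue labels were checked by promoter peaks of marker genes. All 10 erythroid markers had one in each liver list and 1 of 10 in each yolk sac list, and Gata1, Klf1 and Alas2 were among the 9 without one in either yolk sac list. Yolk sac endoderm markers had 8 and 6 of 10 in liver and 10 of 10 in both yolk sac lists, with Amn and Cubn in yolk sac alone. Hepatic markers had 7 or 8 of 10 in each list, mesenchymal markers 7 and 9 against 10 and 10, macrophage markers 3 and 3 of 5 against 5 and 4, and endothelial markers 4 and 5 of 5 against 5 and 5. The part of cell makeup in the tissue differences given below was not tested. In such bulk tissue, fewer cells that use a site and less transcription per cell cannot be told apart.

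Members lay between genes more often than distal regions called in 1 tissue. By its midpoint, 2024 of 3814 (53.1%; 95% Wilson interval 51.5 to 54.6) lay outside every gene, 1490 (39.1%) in an intron and 300 (7.87%) in an exon. Among 3424 distal regions called in both liver lists and neither yolk sac list, 36.0% (34.4 to 37.6) were intergenic. Among 17232 called in both yolk sac lists and neither liver list, 42.3% (41.6 to 43.1) were. The intervals cover counting error only, and the members of a class share their libraries. Of the members in genes, 1514 were in a protein-coding gene. Along that gene 456 (30.1%) lay in the first 25% of its length and 370 (24.4%) in the last 25%. Of the intergenic members, 1234 (61.0%) lay over 5 kb from any gene end, 450 (22.2%) were nearest to a gene's 3′ end within 5 kb and 339 (16.7%) to a 5′ end. The rule for members took out regions within 500 bp of a transcript start, so 5′ ends had less room to count than 3′ ends.

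Members lay closer to start sites than the yolk-sac-only class, while their interval overlapped that of the liver-only class. The median distance from a member's edge to the nearest transcript start was 7410 bp (95% interval of the median 7099 to 7843). It was 7472 bp (7021 to 7911) for liver-only and 10199.5 bp (9986 to 10417) for yolk-sac-only distal regions. Within 10 kb of a start lay 59.5% of members (57.9 to 61.0), 58.7% of the liver-only class (57.0 to 60.3) and 49.3% of the yolk-sac-only class (48.5 to 50.04). Only 20 members were over 100 kb away. Across the threshold of 500 bp, the 146 members at 510 to 999 bp had median percentiles of 34.6, 33.0, 58.9 and 54.2, and the 158 shared regions at 2 to 498 bp had 38.6, 37.7, 59.4 and 55.6. The 11717 shared regions with a start inside them had 66.9, 67.2, 71.8 and 72.3. On the other side of the calling rule, 2560 distal regions were called in 3 of 4 lists, and the list that missed them was liver 1 for 865, liver 2 for 1126, yolk sac 1 for 125 and yolk sac 2 for 444.

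**Figure D1:**
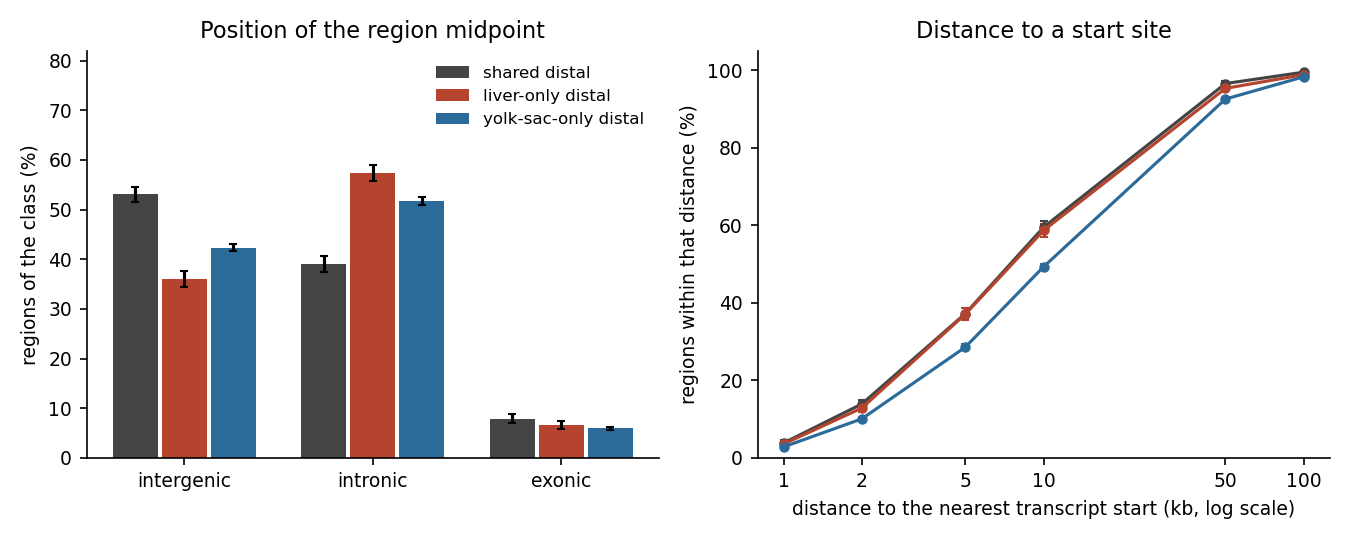
Left, percent of regions whose midpoint lies between genes, in an intron or in an exon, for shared, liver-only and yolk-sac-only distal regions, with 95% Wilson intervals. Right, percent of regions within a given distance (kb, log scale) of a transcript start, where the shared and liver-only curves run together and the yolk-sac-only curve lies lower at 10 kb (49.3% against 59.5% and 58.7%).

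Members ranked higher within the yolk sac lists than within the liver lists. Their median percentile was 43.3 and 40.3 for liver, against 68.4 and 62.4 for yolk sac. The group means were 41.8 ± 2.08 and 65.4 ± 4.27 (SD, n = 2 libraries each), a liver minus yolk sac difference of −23.6. Both yolk sac values were above both liver values, and the gap of 19.1 between the nearest libraries exceeded the differences between replicates, 2.94 in liver and 6.04 in yolk sac. The exact two-sided permutation test gave p = 0.33, the smallest that 2 libraries against 2 allow. Shared regions at a start site had 66.8 ± 0.187 for liver against 71.97 ± 0.283 for yolk sac (SD, n = 2), which differ by −5.14. Because the lists differ in length, the percentile was also taken among the peaks of regions called in all 4 lists, and the difference over members was then −15.4 (26.3 ± 1.93 against 41.7 ± 5.62). With each list cut to its 24333 highest-scoring peaks it was −16.5. It was −12.0 where peaks had to cover 50% of the merged region and −3.77 when only the 50% of each list with the higher scores were kept.

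The covered width followed the same order. Its median over members was 802 and 752 bp for liver against 1152 and 1002 bp for yolk sac, a difference of −300 bp between means of 777 ± 35.4 and 1077 ± 106 bp (SD, n = 2; exact permutation p = 0.33). Without yolk sac replicate 1 it was −175 bp, and where peaks had to cover 50% of the merged region −125 bp. Shared regions at a start site were wider, at 1602, 1502, 1752 and 1602 bp, and there the groups touched (exact permutation p = 0.67). Members with more than 1 peak in a list were few, between 37 and 97 per list.

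**Figure D2:**
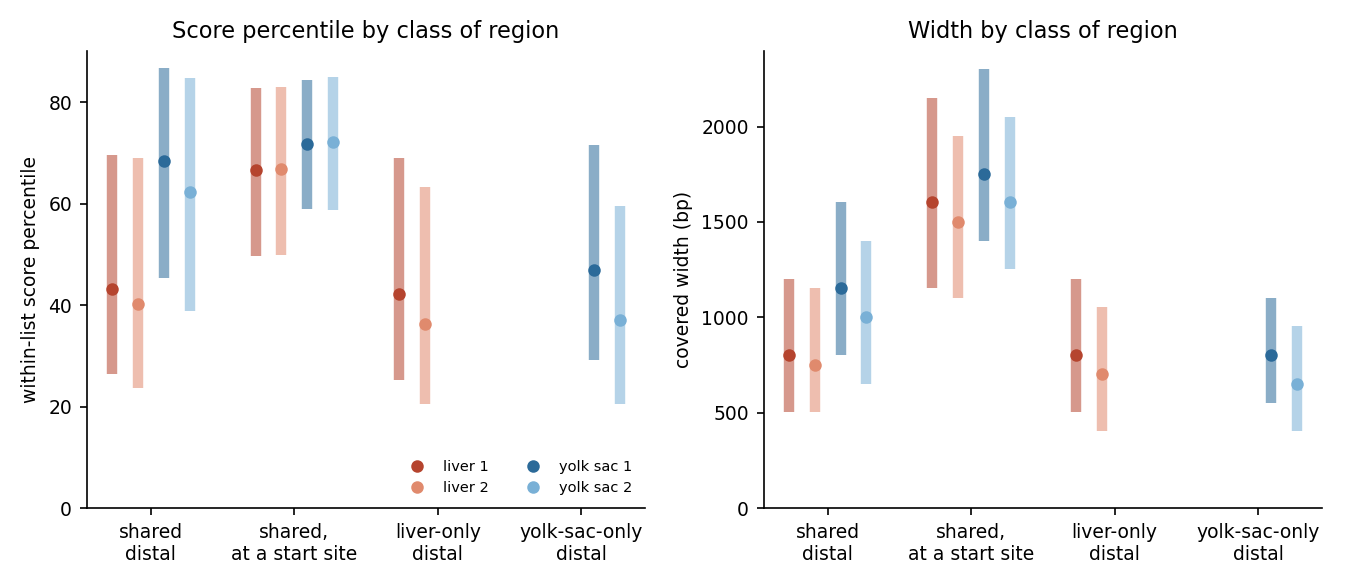
Within-list score percentile (left) and covered width in bp (right) of 4 classes of region, with the median as a point and the middle 50% of regions as a bar, for each of the 4 libraries. For shared distal regions the yolk sac medians (68.4 and 62.4) lie above the liver medians (43.3 and 40.3), a wider gap than at shared start sites.

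Within a tissue the members kept much of their order, and between tissues little of it. Across the 3814 members the percentiles of the 2 liver lists correlated at r = 0.731 and those of the yolk sac lists at 0.771, against 0.208 to 0.280 between a liver and a yolk sac list. The 11875 shared regions at a start site had the same pattern, with 0.720 in liver, 0.722 in yolk sac and 0.238 to 0.366 between tissues. These correlations are across regions that share their libraries and are a description. The median absolute difference between replicates was 11.6 percentile points in liver and 9.71 in yolk sac, and between the tissue means it was 22.0.

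At 1941 members (50.9%) both yolk sac percentiles stood above both liver percentiles, and at 627 members (16.4%) both liver percentiles stood above both yolk sac percentiles. The tissues overlapped at the other 1246. Over all 15689 regions called in the 4 lists, the yolk sac was higher in this sense at 39.3% and the liver at 20.8%. On the scale of peaks in regions called in all 4 lists, the members split into 1411 (37.0%) with the yolk sac higher and 1032 (27.1%) with the liver higher, against 26.2% and 34.1% of all such regions. The share of the yolk sac among the separated members was thus 75.6% on the first scale and 57.8% on the second. Shared regions at a start site changed direction between the scales, from 4225 yolk sac higher and 2635 liver higher to 2704 and 4316. Members had a larger yolk sac share than all shared regions on both scales. Leaving out 1 library, which leaves fewer values to separate, gave 1066 members with the liver higher without liver replicate 2, 1085 without yolk sac replicate 1 and 1090 without yolk sac replicate 2. With the yolk sac higher there were 3122 without liver replicate 1 and 3136 without liver replicate 2.

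**Figure D3:**
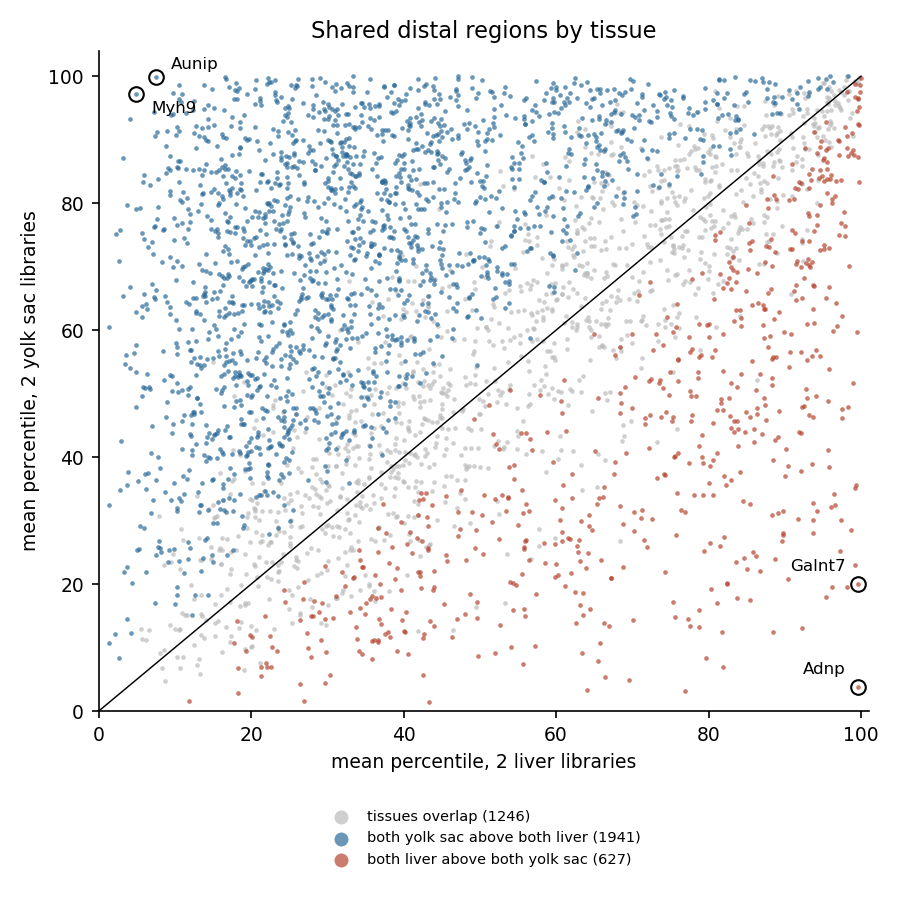
Each point is 1 of 3814 shared distal regions, with the mean percentile of the 2 liver lists on the x axis and of the 2 yolk sac lists on the y axis. Blue points (1941) have both yolk sac values above both liver values, red points (627) the reverse and grey points (1246) overlap, and circles mark the 2 largest differences each way by nearest coding gene.

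Of the 10 members that ranked highest across the lists, 2 held tRNA genes. The highest lowest percentile belonged to a region at chr5:149030701-149032002, between genes 18445 bp from a start of Hmgb1, which encodes an abundant chromatin protein. Its percentiles were 99.9, 99.9, 99.7 and 99.8, above those of almost all peaks in each list. The second, at chr1:171044151-171045402, held the glycine tRNA gene n-TGgcc4 and stood at 99.8, 99.6, 99.6 and 99.9. The third, at chr17:23546251-23547752, held the tRNA genes n-TPtgg6 (proline) and n-TKctt14 (lysine) and stood at 99.1, 99.96, 99.4 and 98.8. The fourth lay in an intron of Itgb4, an integrin subunit of hemidesmosomes, at 99.4, 99.04, 99.7 and 98.7. The next 6 had Map3k1 (a MAP kinase kinase kinase), Fam167b, Ssbp2, Serp2, Hnrnpa3 (an RNA-binding protein) and Ywhaq (a 14-3-3 protein) as nearest coding genes, and the lowest of their percentiles was 97.5. These regions were 1039.5 to 2377 bp wide on average over the lists, and 4 of the 10 counted as higher in liver and 1 as higher in yolk sac at differences of at most 1.72 points.

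The 6 largest differences toward liver had Adnp, Galnt7, Clcn3, Ube2o, Ptgdr2 and Bcl2l1 as nearest coding genes. The first, at chr2:168168801-168170902 and 35807 bp from Adnp, a chromatin regulator gene, stood at 99.7 and 99.4 in liver and 6.54 and 1.10 in yolk sac. It was 2002 and 2052 bp wide in liver, against 152 and 102 bp in yolk sac. An intron of Galnt7, a glycosyltransferase gene, held the second, at 99.6 and 99.5 against 13.3 and 26.8. An intron of Clcn3, a chloride transporter gene, held the next, at 97.2 and 87.4 against 24.7 and 1.35. Ube2o encodes a ubiquitin-conjugating enzyme known for remodelling the proteome of maturing red cells, and a region in its intron stood at 98.7 and 97.7 against 15.1 and 23.9. In an exon of Ptgdr2, a prostaglandin receptor gene, the values were 92.9 and 97.9 against 30.7 and 5.22. Bcl2l1, which encodes the survival factor Bcl-xL, had one in an intron at 95.6 and 96.9 against 34.5 and 4.61. In 5 of the 6 the yolk sac peaks were the narrower, and the exception was Ptgdr2, with 1052 and 952 bp against 2002 and 652 bp.

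The 6 largest differences toward yolk sac each had a liver percentile of 5.799 or less in 1 of the liver libraries. In an intron of Aunip, at chr4:134516501-134518352, the percentiles were 14.6 and 0.436 in liver and 99.8 and 99.8 in yolk sac. In an intron of Myh9, a non-muscle myosin heavy chain gene, they were 1.74 and 8.17 against 99.7 and 94.6. A region 22579 bp from Mrtfb, which encodes an actin-responsive coactivator of serum response factor, stood at 6.83 and 1.51 against 92.3 and 94.1. An intron of Sgk1, a serum- and glucocorticoid-induced kinase gene, held one at 1.97 and 19.1 against 98.0 and 99.3. The last pair were 12273 bp from Itpripl2, at 18.1 and 1.37 against 95.2 and 99.6, and in an intron of Igfbp7, a secreted insulin-like growth factor binding protein, at 8.64 and 5.799 against 91.1 and 97.7. In each of the 6 the liver peak was the narrower, for example 602 and 102 bp against 1852 and 1752 bp in Aunip.

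tRNA genes were found in 52 members (1.36%; 95% Wilson interval 1.04 to 1.78). Transfer RNAs are the adaptors of translation, and RefSeq lists 430 of their genes on this assembly, many in near-identical copies whose reads can be placed at another copy. Members held 75 of the 430. Liver-only distal regions held 6 (in 6 of 3424 regions, 0.175%), yolk-sac-only distal regions held 12 (in 9 of 17232, 0.0522%) and shared regions at a start site held 58 (in 44 of 11875, 0.371%), while 257 genes lay in no region. The intervals of these shares did not reach that of the members. Members were distal by GENCODE starts, which did not hold the starts of the tRNA genes in them. The contrast with shared regions at a start site therefore depends in part on that choice of annotation. Of the 52 members, 46 were intergenic, 17 held more than 1 tRNA gene and 13 lay on chromosome 13. Leucine (10 genes), lysine (9) and proline (9) tRNAs were the most numerous in them, and cysteine tRNAs, the most numerous family in the genome with 57 genes, accounted for 2.

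The tRNA-holding members ranked high in liver too. Their percentiles ran from 23.7 to 99.8 with a median of 67.9 in liver 1, and from 7.83 to 99.96 with a median of 66.2 in liver 2. In yolk sac they ran from 20.3 to 99.6 with a median of 75.2 and from 6.81 to 99.9 with a median of 68.0. The other members had medians of 42.99, 40.02, 68.2 and 62.3, so the distance between the 2 kinds was wider in the liver lists. The liver percentiles stood above at 14 of the 52 (26.9%) and the yolk sac percentiles at 16 (30.8%), beside the backgrounds of 20.8% and 39.3% given above. On the scale of peaks in shared regions these counts were 19 and 6, so that the direction reversed. It also reversed over all regions called in the 4 lists, to 34.1% with the liver higher and 26.2% with the yolk sac higher.

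**Figure D4:**
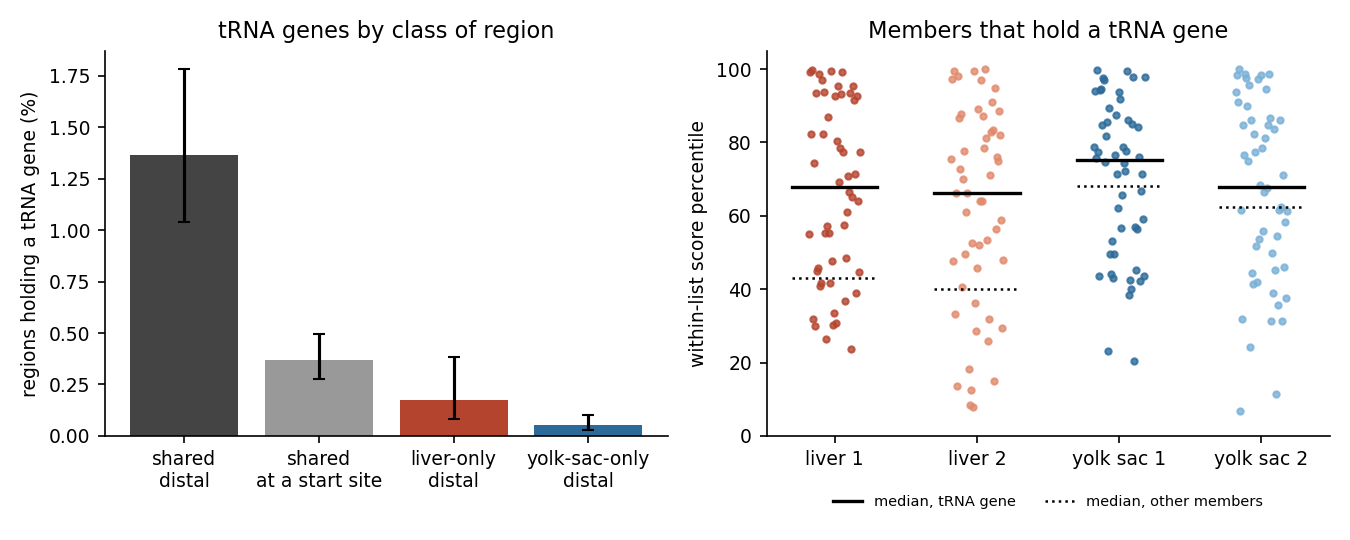
Left, percent of regions of 4 classes that hold a RefSeq tRNA gene, with 95% Wilson intervals, highest for shared distal regions at 1.36%. Right, the within-list percentile of each of the 52 tRNA-holding members in the 4 libraries, with their median as a solid line and the median of the other members as a dotted line.

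Most members had a nearest coding gene whose promoter was called in both tissues. The nearest protein-coding gene had a promoter peak in all 4 lists for 3112 members (81.6%; 80.3 to 82.8), for 80.1% of liver-only distal regions and for 74.96% of yolk-sac-only ones, against 53.8% of the 21924 protein-coding genes. In all, 2746 coding genes (12.5%) were the nearest to at least 1 member. Of the 11787 with a promoter peak in all 4 lists, 18.3% were. Of those 2746 genes, 2059 had a single member. Bcor, which encodes a transcriptional corepressor, had 11, Zfp217, a zinc finger transcription factor gene, had 10, and Zfp36l1, whose product promotes decay of AU-rich mRNAs, had 8. Rreb1, Zmiz1, Vegfa, Cstad and 1700001O22Rik had 7 each. Rreb1 encodes a Ras-responsive zinc finger factor, and Vegfa is the principal growth factor of blood vessels.

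The members around Bcor lay 4194 to 91296 bp from its start and stood lower in liver. Their median percentiles were 39.5, 37.8, 72.6 and 70.2, and 8 of the 11 were higher in yolk sac and none in liver. Around Zmiz1, which encodes a SUMO ligase-like coactivator, the medians were 45.1, 35.1, 76.7 and 69.3, with 6 of 7 higher in yolk sac and 1 in liver. Around Vegfa they were 45.7, 59.4, 61.5 and 55.0, with 4 higher in yolk sac and 1 in liver. Around Zfp36l1 the medians were 67.0, 44.2, 68.8 and 83.0, with 3 of 8 higher in each tissue. These small counts stand beside 50.9% of all 3814 members higher in yolk sac and 16.4% higher in liver.

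When members less than 25 kb apart were joined, 2316 (60.7%) stood alone and the largest group held 10, over 83.9 kb beside Zfp217. Its members differed from each other. The region 25448 bp from the Zfp217 start stood at 97.2, 97.1, 96.4 and 99.4, and the next one, which holds the Gm34403 start printed above, at 98.3, 98.3, 84.5 and 90.4. Those 47298 and 53648 bp away were both higher in yolk sac, at 4.06, 19.8, 47.5 and 39.7 and at 31.0, 21.0, 70.4 and 56.0. The region 2476 bp away, in an intron of Zfp217, stood at 82.4, 26.2, 18.4 and 13.5, where the 2 liver lists were far apart. Of the 10, 2 were higher in liver and 4 in yolk sac. The next groups held 8 members each. One lay around Cep19, Nrros and Bex6 on chromosome 16, with 5 higher in yolk sac and none in liver, and the other around Foxp4 and 1700122O11Rik on chromosome 17, with 4 and 3. The shares over all members, 50.9% higher in yolk sac and 16.4% in liver, are the background of the counts in these groups.

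**Figure D5:**
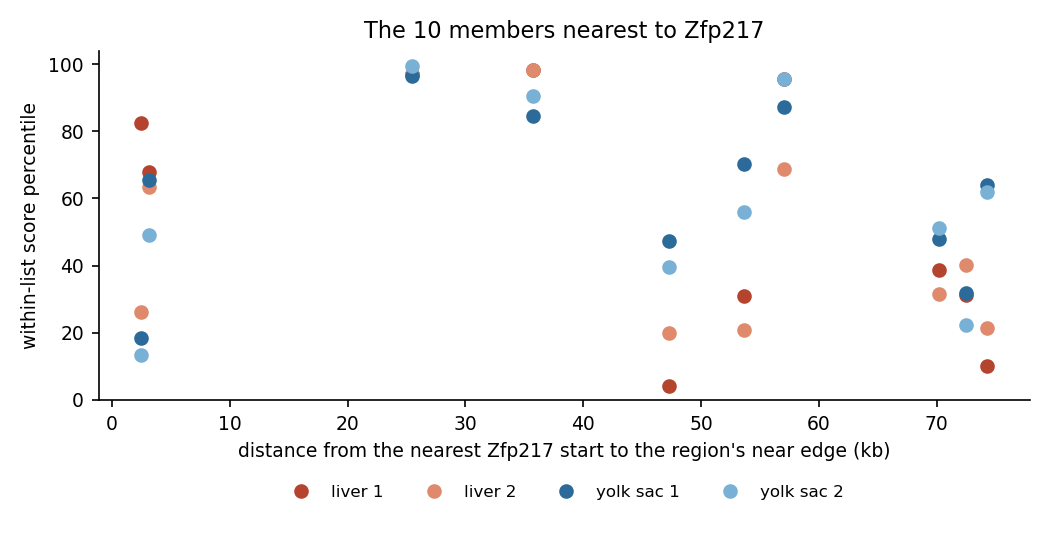
Within-list percentile of the 10 members of the largest group in the 4 libraries (colours), against their distance in kb from the nearest Zfp217 start. Members at 25448 and 35748 bp are high in all 4 lists, whereas those at 47298, 53648, 70198 and 74298 bp have both yolk sac values above both liver values.

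Immediate early and stress genes, which are switched on within minutes by growth factors and stress, were often the nearest coding gene of a member, though not always a close one. Of 36 such genes, all with a promoter peak in the 4 lists, 26 (72.2%) were the nearest coding gene of at least 1 member, against 18.3% of all coding genes with such a promoter. They had 63 members, 34 higher in yolk sac and 13 in liver (25 and 18 on the scale of peaks in shared regions), with a median liver minus yolk sac difference of −16.8, beside −14.4 over all members. Over all 3814 members, 50.9% were higher in yolk sac and 16.4% in liver (37.0% and 27.1% on the scale of peaks in shared regions), and the counts of this list and of those that follow are to be read against these shares. The gene lists were chosen with earlier results of these data known. The shares of all coding genes given beside them are not matched for the space around each gene. The closest member of Jun lay 101229 bp from its start and that of Klf9 83024 bp, whereas that of Hes1 lay 1763 bp away. Near Fosb, a subunit of the AP-1 factor, the 1 member stood at 2.82 and 33.9 in liver and 97.5 and 98.8 in yolk sac. Near Nfkbia, which encodes the inhibitor of NF-kB, it stood at 33.6 and 24.6 against 99.95 and 99.5. Ier2 went the other way, at 68.2 and 83.8 against 55.9 and 55.0. The 3 members near Klf4, a zinc finger factor, were split, with the one 118085 bp away at 96.1 and 97.2 in liver and 61.2 and 67.3 in yolk sac and the one 16168 bp away at 58.9 and 89.5 against 96.3 and 98.6. The third, 580085 bp away, stood at 30.5 and 42.6 against 90.98 and 90.6.

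Of 18 genes of endoderm and hepatic transcription factors, 9 were the nearest coding gene of a member (50%, against 12.5% of all coding genes and 18.3% of those with a promoter peak in all 4 lists). Of their 21 members, 13 were higher in yolk sac and 1 in liver (11 and 2 on the scale of peaks in shared regions), and the median difference was −34.4. Hnf4a, a nuclear receptor of hepatocytes and visceral endoderm, had 3. The one 24768 bp from its start stood at 68.0 and 26.2 in liver and 99.1 and 99.97 in yolk sac, and that 4868 bp away, in an intron, at 27.9 and 18.2 against 87.8 and 59.2. At the third, 18643 bp away, the tissues overlapped at 36.1, 14.996, 62.9 and 25.8. Foxa2, a forkhead factor of endoderm, had one 14362 bp away at 10.7 and 31.8 against 94.4 and 97.7, and a nearer one at 1582 bp where the tissues overlapped at 48.4, 3.38, 24.8 and 22.9. Cebpa, a leucine zipper factor of hepatocytes, had 5, of which 2 were higher in yolk sac and 1 in liver.

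Of 22 genes for proteins that endoderm secretes or transports, 7 had members (31.8%, against 12.5% of all coding genes). Among the 15 with a promoter peak in all 4 lists, 5 had members, against 18.3% of all such coding genes. The 7 genes had 11 members in all. Of these, 7 were higher in yolk sac and 1 in liver, and on the other scale 4 and 2, where 37.0% and 27.1% of all members were. Of these, 4 lay beside Alb, the serum albumin gene, 10195 to 45795 bp from its start. The nearest stood at 79.03, 90.3, 99.2 and 85.5 with overlapping tissues, and the farthest at 53.5 and 39.1 in liver and 3.98 and 19.5 in yolk sac. Afp encodes alpha-fetoprotein, made by both tissues, and the region 4285 bp from its start stood at 13.9 and 29.1 against 74.2 and 57.8. Cubn, which encodes the endocytic receptor cubilin, had no promoter peak in either liver list. Its intronic members at 69625 and 82675 bp were nevertheless called there, at 61.1 and 46.7 and at 12.8 and 7.68, against 99.7 and 94.1 and 20.05 and 16.6 in yolk sac.

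Of 20 erythroid and blood regulators, 7 were the nearest coding gene of a member (35%, against 12.5% of all coding genes). Among the 13 with a promoter peak in all 4 lists, 5 were, against 18.3% of all such coding genes. Of the 11 members of the 7 genes, 5 were higher in yolk sac and 1 in liver. That was close to the shares of 50.9% and 16.4% over all members, and on the other scale there were 3 in each. Gata1, the master factor of red cells, had no promoter peak in the yolk sac lists, yet a member 14380 bp from its start stood at 39.0 and 31.9 in liver and 49.4 and 24.5 in yolk sac. Gata2, its counterpart in progenitors and endothelium, had one at 7.50 and 21.3 against 89.9 and 89.7. Tal1, a helix-loop-helix factor of blood, had 2, one 3124 bp away at 67.9, 85.9, 86.3 and 94.4 and one 2893 bp away in its exon at 46.8, 38.2, 31.2 and 35.7. The first was higher in yolk sac and the second in liver. For Spi1, a myeloid factor, the tissues overlapped at 59.2, 68.9, 74.3 and 62.6. Of 16 endothelial genes, 4 had members (25%, against 12.5%). Among the 9 with a promoter peak in all 4 lists, 2 had members, against 18.3% of all such coding genes. The 4 genes had 5 members in all, too few to read a direction. On either scale 2 were higher in yolk sac and none in liver, beside 50.9% and 16.4% of all members on the first. The one in an intron of Pecam1, an adhesion molecule of endothelium, 11075 bp from the start, stood at 19.5 and 40.9 against 94.5 and 93.03, and the one 2174 bp away overlapped between tissues at 47.3, 17.7, 53.4 and 46.8.

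Ribosomal protein genes were chosen by a rule on gene names, which also takes the kinase gene Rps6ka1 with 4 members. Of 98 genes, 15 had members (15.3%, near the 12.5% of all coding genes), 21 in all. Of these, 8 were higher in liver and 6 in yolk sac (13 and 3 on the scale of peaks in shared regions), where 16.4% and 50.9% of all members were (27.1% and 37.0%). The median difference was 1.97, beside −14.4 over all members. Near Rpl29 the member 732 bp away stood at 46.8 and 41.2 in liver and 21.9 and 22.3 in yolk sac. Not all members of the list were close. That of Rpl38, higher in liver, lay 220922 bp from its start and that of Rps24, higher in yolk sac, 287402 bp.

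Imprinted genes, expressed from 1 parental copy, had members for 9 of 34 coding genes (26.5%, against 12.5% of all coding genes). Among the 24 with a promoter peak in all 4 lists, 7 had members, against 18.3% of all such coding genes. Of the 22 members 13 were higher in yolk sac and 4 in liver (10 and 7 on the other scale), close to the shares of 50.9% and 16.4% over all members. The series concerns the Dlk1-Dio3 cluster on chromosome 12, where 5 members were found. The first, at chr12:109436151-109438602 and 14221 bp from Dlk1, which encodes a transmembrane growth regulator, stood at 83.1 and 72.6 in liver against 72.6 and 63.7 in yolk sac. The second, at chr12:109449201-109450852 and 1971 bp from the Dlk1 start, stood at 33.0 and 25.2 against 93.0 and 78.7. The third, in an intron of Gm34081, stood at 79.7 and 62.0 against 86.4 and 99.8. Toward Dio3, which encodes a deiodinase that inactivates thyroid hormone, lay members at 24.9 and 16.3 against 76.5 and 72.8 and at 17.9 and 10.9 against 62.4 and 54.8. The first of the 5 was thus higher in liver by a narrow margin and the other 4 in yolk sac. Beside Igf2, a fetal growth factor gene, the member at 41278 bp was higher in liver (59.2 and 66.5 against 23.3 and 26.7). Of the 4 nearest to Cdkn1c, a cell cycle inhibitor gene, 1 was higher in yolk sac, in an intron of Kcnq1 at 49.1 and 38.1 against 95.05 and 90.7.

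The widest member, at chr6:51167951-51174652, lay 95258 bp from the microRNA gene Mir148a and covered 4554 and 3204 bp in liver and 6702 and 5554 bp in yolk sac. The next were near Azin1, in an intron of Arhgap23, near Tnrc18 and in an intron of Kdm6b, a histone demethylase gene, where the widths were alike in all lists at 3902, 3752, 4052 and 4002 bp. Among the members farthest from any start, the extreme was 271413 bp away. The second, 269607 bp from a start and with Fign as nearest coding gene, stood at 8.19 and 16.6 in liver against 77.6 and 92.8 in yolk sac. The other 3 lay in an intron of Rad51b, a DNA repair gene, 214148 to 231848 bp from its start.

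Members higher in liver had liver-only distal regions near them more often. One lay within 10 kb of 117 of 627 such members (18.7%; 15.8 to 21.9) and of 181 of 1941 members higher in yolk sac (9.33%; 8.11 to 10.7). For yolk-sac-only distal regions the shares were 39.1% (35.3 to 42.9) and 41.8% (39.6 to 44.0), with overlapping intervals. The neighbours come from the same lists as the percentiles, and no test was made.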

How the data were processed

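PRO-seq was made from liver and yolk sac, 2 libraries each. The labels do not say whether the libraries of a group share embryos, so p-values measure only the spread between these libraries. Per the submitters' processing notes, Bowtie2, bedtools and the build mm10 (GRCm38) were used. The file names carry the word dREG, and its version and settings are not given in the sources used here. The authors deposited 1 peak list per library with a score that has no unit and was at least 0.80 in each list. It was used only to rank peaks within a list. Depth is unknown.

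Peaks were merged and described with Python 3.11.15, numpy 2.4.6, pandas 2.3.3, scipy 1.17.1 and matplotlib 3.10.9, using GENCODE vM21 and RefSeq (GRCm38.p6), and functions were tested on simulated lists. Where a list had several peaks in a region, the highest score and the summed width were taken. Positions are 1-based and positions in genes use the midpoint. Distances run from a region's edge. Groups were compared by exact two-sided permutation over 6 assignments of the libraries, and intervals are 95% Wilson intervals. Alternatives were other start distances, start sets, score filters, list lengths, overlaps, scales and each library left out.

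The members, gene lists and markers were chosen with earlier results of these data known. Named items are the 10 members with the highest lowest percentile, the 6 largest tissue differences each way, the Dlk1-Dio3 members, the 5 widest, the 5 farthest from a start, the genes nearest to most members, the 3 largest groups and genes of the lists with a member. No genome sequence was used, so CpG and motif content of all members was not analysed. RefSeq start windows took its place, and that choice and the rule for the printed windows were made after the data were seen. Windows with over 30 bases of UTR were not printed.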

Additional observations from a re-analysis of the deposited data

How the results depend on the processing

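The tissue differences in median percentile and median width over all members kept their direction under the alternatives run. On the scale of peaks in shared regions the counts reversed for tRNA-holding members (from 14 higher in liver and 16 in yolk sac to 19 and 6) and for the 286 exonic members with neither a tRNA gene nor a RefSeq start (from 54 and 125 to 99 and 84). They also reversed over all 15689 regions called in the 4 lists, from 3262 and 6166 to 5348 and 4115. The cause of the moves was not tested. In the higher-scoring 50% of each list, 858 regions met the rule for members, 35.8% of them inside genes and 54.3% within 10 kb of a start. The tissue differences were −3.77 percentile points and −175 bp, 191 members were higher in liver and 254 in yolk sac, and 22 held a tRNA gene. With lists cut to the shortest length there were 2287 members, 41.1% inside genes and 54.5% near a start, with differences of −16.5 points and −425 bp, with 536 members higher in liver and 845 in yolk sac. Where peaks had to cover 50% of the merged region there were 1658, 41.8% inside genes and 61.3% near a start, with −12.0 points and −125 bp, 308 higher in liver and 657 in yolk sac. Protein-coding starts alone gave 50.3% inside genes and 40.7% near a start, a start distance of 1000 bp gave 57.9% near a start, and coding genes alone gave 39.7% inside genes. On the scale of peaks in shared regions the difference was −15.4 points, with 1032 members higher in liver. Leaving out 1 library gave 3977 to 4939 members, 47.5% to 48.7% inside genes, 59.3% to 60.3% near a start, differences of −29.9 to −19.6 points and −375 to −175 bp, 895 to 1090 members higher in liver, 2217 to 3136 higher in yolk sac and 50 to 55 with a tRNA gene. The alternatives for tRNA genes were chosen after seeing the data. Across members, the deviations of same-numbered libraries correlated at 0.00602. A correlation across regions cannot show whether such libraries share embryos, so pairing by replicate number stays unknown. With the replicate block, differences were taken per region within each number, and their medians averaged −13.8 points and −250 bp. The main values of −23.6 points and −300 bp compare library medians, which is a different statistic. Taken per region without the block, the median difference between tissue means was −14.4 points. The block gave 772 members higher in liver and 2145 in yolk sac. The CpG share of members and its alternatives, and the members with most motif matches, were not run.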

Other observations

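Of the 15 protein-coding RefSeq start windows inside members, H1f3, which encodes a linker histone, lay in a region at 54.8, 58.4, 45.9 and 39.8 in the order liver 1, liver 2, yolk sac 1 and yolk sac 2, covering 2202, 2152, 2252 and 2102 bp. Ethe1, a mitochondrial sulfur dioxygenase gene, had a window in a region at 70.4, 72.5, 61.7 and 76.7. At Lims1, an adaptor of integrin signalling, the region stood at 46.6 and 41.4 in liver and 34.7 and 4.31 in yolk sac, and it covered 3302 and 2952 bp against 452 and 102 bp.

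Among genes with 6 members, Maml3, a coactivator of Notch, had 5 higher in yolk sac and 1 in liver, and Klf3, a zinc finger repressor, had 4 and 0. Gadd45g, a growth arrest gene, had 2 and 3. Over all members, 50.9% were higher in yolk sac and 16.4% in liver. These are values with no test.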
